A study of Rattus norvegicus with 25 samples.

Results

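The normal gradient along the rat small intestine was measured by comparing the ileum with the jejunum of sham-operated rats, 2 segments that no bypass had altered. The libraries were chosen by their labels alone: 3 labelled Sham_IL (ileum, sham surgery) and 3 labelled Sham_JEJU (jejunum, sham surgery), 6 of the 25 libraries in the series. Each holds total RNA depleted of ribosomal RNA. Both groups share the sham operation and the sample numbers 8-15, 14-28 and 15-30. Neither the strain nor the age of these rats is given in the sources used here.

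For reference, 6 libraries came from rats with a Roux-en-Y gastric bypass (RYGB), in which a small gastric pouch is connected directly to the jejunum: 3 of the alimentary limb, which carries food from the pouch (RYGB_AL), and 3 of the common limb, where food meets bile and pancreatic juice (RYGB_CL). A second cohort came from Otsuka Long-Evans Tokushima Fatty (OLETF) rats, which grow obese and develop diabetes. This cohort held distal intestine after sham surgery (Sham_OLE, 3 sample numbers) and sections after RYGB that the submitters called glucotonic (Glucotonic_OLE) or non-glucotonic (Nonglucotonic_OLE), 4 sample numbers each.

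As background, jejunum and ileum divide the work of absorption. The jejunum, with tall villi, takes up most sugars, amino acids, fat and folate. The ileum recovers bile acids and vitamin B12, holds many of the hormone cells that release peptide YY and glucagon-like peptide 1, and carries organised lymphoid tissue. The deposited table identifies genes by Ensembl rat IDs only, and 0 of its 32883 IDs could be paired with a symbol here. The IDs below are therefore described by their levels and changes, and nothing is said of which of these functions an ID belongs to. For the same reason the labelled segments were not checked against known markers, and no sequence is shown.

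Total counts were 28.5 to 49.3 M per Sham_JEJU library and 23.7 to 27.9 M per Sham_IL library (M, mega), so depth moved with the segment. The TMM scaling factors, which correct for libraries dominated by few strongly expressed genes, moved with it too: 0.822 to 0.958 in jejunum and 1.06 to 1.23 in ileum. Levels below are CPM, counts relative to the TMM-scaled size of the library. In bulk tissue, more cells of a kind and more RNA per cell cannot be told apart.

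Jejunum and ileum differed at many genes. Of 16146 IDs tested, 444 were higher and 1045 lower in ileum, which is 2.75% and 6.47% of the IDs tested and 9.22% together (p from edgeR's quasi-likelihood test, adjusted after Benjamini and Hochberg, under 0.05). Changes had a median of 1.34 log2 units for ileum-higher IDs and -0.94 for ileum-lower IDs, against 0.03 for the whole table of tested IDs. Changes over 2-fold made up 68.2% of the ileum-higher set (303 IDs) and 43.7% of the ileum-lower set (457 IDs). Over 4-fold there were 118 and 123 IDs. Over 16-fold there were 30 and 37, where an ID without a count in one segment was given a floor of 3 counts for that group.

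How many IDs were higher and how many lower depended on the scaling, which sets the level called unchanged. Scaling by DESeq2's size factors gave 433 higher and 1038 lower. Upper-quartile factors gave 727 higher and 640 lower and moved the median log2 change of all IDs to 0.17. With no scaling factor the split turned to 1339 higher and 451 lower, around a median of 0.34. The direction counts are therefore relative to a scaling under which the typical ID does not change, and the larger number of ileum-lower IDs held, of the scalings tried, under TMM and DESeq2's factors only. Thinning all libraries to the same total left 421 higher and 994 lower.

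**Figure D1:**
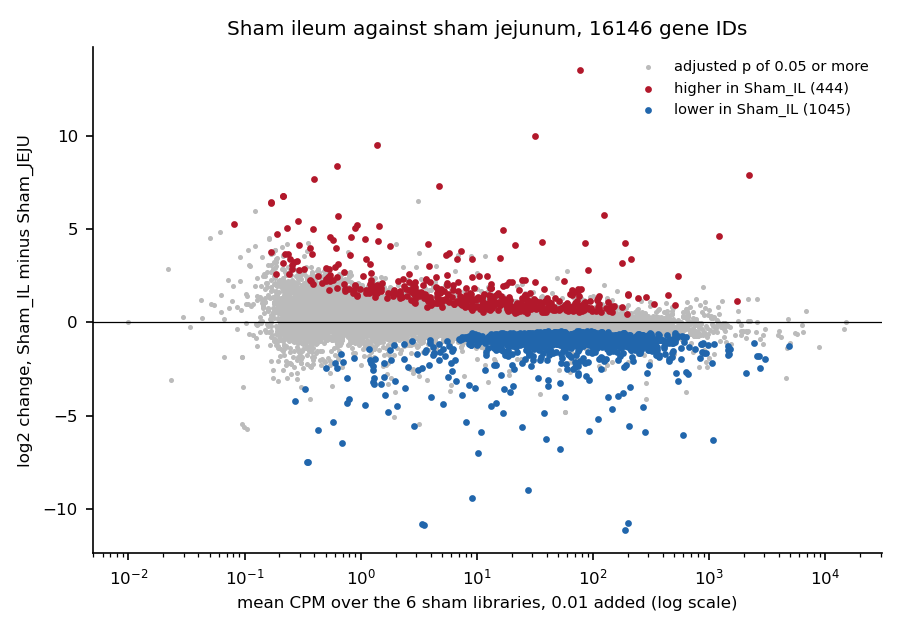
Each point is 1 of 16146 gene IDs, with its mean CPM over the 6 sham libraries on a log axis and its log2 change (Sham_IL minus Sham_JEJU). The 1045 IDs lower in ileum (blue) crowd the right side of the plot at high levels, while the 444 IDs higher in ileum (red) spread over the whole range.

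The 2 directions differed in where on the abundance scale they lay. Among the 2137 IDs with a mean of at least 100 CPM, 352 (16.5%) were lower in ileum and 33 (1.54%) were higher. Among the 7098 IDs between 10 and 100 CPM, 595 were lower and 194 higher. The order was the other way round for scarce transcripts: of 4331 IDs between 1 and 10 CPM, 82 were lower and 150 higher, and of 2580 IDs under 1 CPM, 16 were lower and 67 higher. Called IDs had larger changes when scarce, but a scarce ID also needs a larger change to be called. Over all IDs tested the median absolute log2 change was 0.80 under 1 CPM and 0.45 from 1 to 10 CPM. It was 0.32 from 10 to 100 CPM and 0.41 above that. Among scarce called IDs the lower ones had the larger median log2 changes, -3.83 against 2.88 under 1 CPM and -1.72 against 1.56 from 1 to 10 CPM. Among abundant called IDs the higher ones did by a little, 0.93 against -0.87 from 10 to 100 CPM and 1.10 against -0.98 above that. Within the most abundant class, ileum-lower IDs outnumbered ileum-higher ones under each scaling tried, by 347 to 31 with DESeq2's size factors, 245 to 66 with upper-quartile factors and 188 to 144 with no factor. Single libraries moved the number of lower IDs in this class to 59 (without Sham_IL 15-30), 79 (Sham_IL 8-15), 232 (Sham_IL 14-28), 160 (Sham_JEJU 8-15) and 162 (Sham_JEJU 15-30), in each case above the number of higher IDs. It was 0 without both libraries of number 8-15 or of number 15-30.

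Genes active in one segment and silent in the other were rare. Only 2 IDs lay under 1 CPM in each jejunum library and over 10 CPM in each ileum library, and 3 IDs showed the reverse. By counts, 3 IDs had none in any jejunum library and at least 10 in each ileum library, and 4 IDs had none in any ileum library and at least 10 in each jejunum library. In contrast, 8085 IDs stood above 10 CPM in each of the 6 libraries. The segments thus differed mostly in the amounts of transcripts that both held.

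The called IDs took very different parts of each library. The 444 ileum-higher IDs held 0.735%, 0.835% and 0.975% of the counts in the jejunum libraries and 2.99%, 3.12% and 3.36% in the ileum libraries. The 1045 ileum-lower IDs held 16.3% to 19.4% of jejunum counts and 8.75% to 9.91% of ileum counts. These shares were computed with 2 IDs left out that dominate the OLETF libraries. They restate the values that chose the IDs and carry no test.

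The same IDs were then read in libraries outside the sham contrast. The RYGB libraries shared the filter, scaling and spread estimate of the fit that chose these IDs. The OLETF libraries were not in that fit. In RYGB_AL the ileum-higher IDs held 0.872% to 1.12% of counts and the ileum-lower IDs 15.5% to 16.8%, near the jejunum values. RYGB_CL lay between the sham segments, at 1.34% to 2.61% and 10.8% to 13.8%. The OLETF sections after RYGB held 1.90% to 2.60% (Glucotonic_OLE) and 1.52% to 2.40% (Nonglucotonic_OLE) on the ileum-higher IDs. These values lay below every sham ileum library (lowest 2.99%) and within the range of RYGB_CL. On the ileum-lower IDs they held 9.10% to 10.1% and 9.75% to 11.5%, near the sham ileum values. The 3 Sham_OLE samples were far apart, at 0.849%, 2.05% and 2.74% on the ileum-higher IDs and 15.5%, 9.91% and 8.55% on the ileum-lower IDs. All 3 lay below the sham ileum libraries on the first share, and Sham_OLE 4, labelled distal intestine, lay within the range of sham jejunum there. Whether a difference between the cohorts shifts these shares was not tested.

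**Figure D2:**
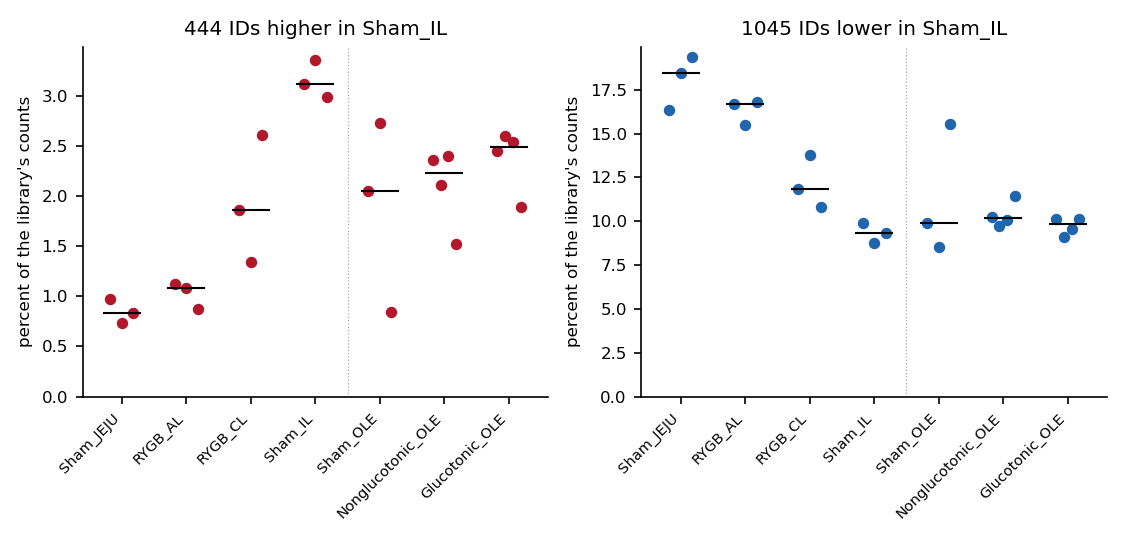
The vertical axes give the percent of each library's counts (2 dominant IDs left out) on the 444 IDs higher (left) and the 1045 IDs lower (right) in Sham_IL; points are libraries or sample numbers and bars are medians. RYGB_AL sits near Sham_JEJU, RYGB_CL between the sham segments, and 1 of 3 Sham_OLE points lies apart from the others at 0.849% and 15.5%.

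A pair of IDs stood out among those higher in ileum: they had the largest log2 changes of the 280 ileum-higher IDs that averaged at least 5 CPM and did not overlap between the segments. ENSRNOG00000020899 was read at 56.2, 146 and 262 CPM in the ileum libraries 8-15, 15-30 and 14-28. The jejunum libraries held 1 count of it together, at 0, 0 and 0.0366 CPM. Every ileum library was thus far above every jejunum library, and the ratio of the pooled levels was 16708 with a 95% counting interval of 2998 to 659982 (log2 change 13.51, SE 1.70, adjusted p = 0.00424, edgeR). The exact size of such a ratio is limited by the single jejunum count.

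This ID was low in the operated limbs. It reached 0.0352, 0.782 and 4.07 CPM in the RYGB_CL libraries and 0.344, 0.486 and 1.69 CPM in RYGB_AL. The ileum-jejunum difference of sham rats exceeded the common-alimentary difference of RYGB rats by 12.50 log2 units (edgeR interaction test, adjusted p = 0.0310, SE 2.05), a call that was lost in 13 of 19 alternatives, with an adjusted p of up to 0.12; these include leaving out any 1 of the 6 sham libraries, any of the alimentary libraries or the common limb library 1-1. In OLETF rats the highest value was 7.60 CPM in Sham_OLE 23. The 2 IDs that dominate the OLETF libraries held 45.7% to 65.9% of their counts, against 0.192% to 1.58% in the first cohort. They stayed in the CPM, so OLETF levels read low beside those of the first cohort and their sizes cannot be compared directly. Sham_OLE 22 held 3.40 CPM and Sham_OLE 4 held 0.0408 CPM.

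ENSRNOG00000012040 was at 44.2, 57.2 and 87.5 CPM in the ileum libraries and at 0, 0.0247 and 0.183 CPM in the jejunum libraries (log2 change 9.99, SE 1.80, adjusted p = 0.0108, edgeR). Unlike the former ID it was also high in part of the operated gut. The RYGB_CL libraries held 0.669, 0.970 and 37.7 CPM, where the highest, library 2-3, came close to sham ileum and the other 2 did not. RYGB_AL held at most 0.0313 CPM, and the difference between the limbs passed the test (log2 change 9.20, SE 1.97, adjusted p = 0.0192, edgeR). In OLETF rats it ranged from 5.26 to 28.4 CPM in Glucotonic_OLE and from 0.171 to 17.7 CPM in Nonglucotonic_OLE. The Sham_OLE samples 4, 22 and 23 were at 0, 3.11 and 18.6 CPM.

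Of the 981 ileum-lower IDs that met the same rule, 2 are named. ENSRNOG00000036959 was read at 121, 209 and 881 CPM in the jejunum libraries 14-28, 15-30 and 8-15, and at 0.103, 0.186 and 0.404 CPM in the ileum libraries (log2 change -10.74, SE 1.77, adjusted p = 0.00834, edgeR). The alimentary limb kept a jejunum-like level, with 186, 748 and 809 CPM. The common limb held 29.7 and 30.1 CPM in libraries 15-29 and 1-1 but 0.228 CPM in library 2-3, the library in which ENSRNOG00000012040 was high. Across the RYGB limbs the ID was lower distally as well (log2 change -4.86, SE 1.30, adjusted p = 0.0412, edgeR). Sham_OLE 4 held 64.8 CPM, whereas Sham_OLE 22 and 23 held 1.02 and 0.0475 CPM.

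ENSRNOG00000058652 had the largest negative change, yet that value came from a single library. Sham_JEJU 8-15 held 1127 CPM, against 1.72 and 2.44 CPM in Sham_JEJU 14-28 and 15-30. The ileum libraries held 0, 0.223 and 0.269 CPM, so the segments did not overlap. The log2 change was -11.14 (SE 2.92, adjusted p = 0.0405, edgeR) with all libraries and -3.65 (adjusted p = 0.182, edgeR) without Sham_JEJU 8-15. The ID was at 7.23, 15.6 and 16.1 CPM in RYGB_AL and at 0, 0.532 and 4.58 CPM in RYGB_CL, a difference that did not pass the test (log2 change -2.98, SE 2.01, adjusted p = 0.345, edgeR). Over the 17 alternatives that gave it an adjusted p, this ran from 0.0282 to 0.334 (edgeR). The call was lost in 11 of the 17, among them leaving out any of the 3 ileum libraries. The segment difference of the other 3 named IDs passed the test with each sham library left out in turn, and missed it without both libraries of number 15-30 or of number 8-15 (adjusted p = 0.0785 to 0.121, edgeR).

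**Figure D3:**
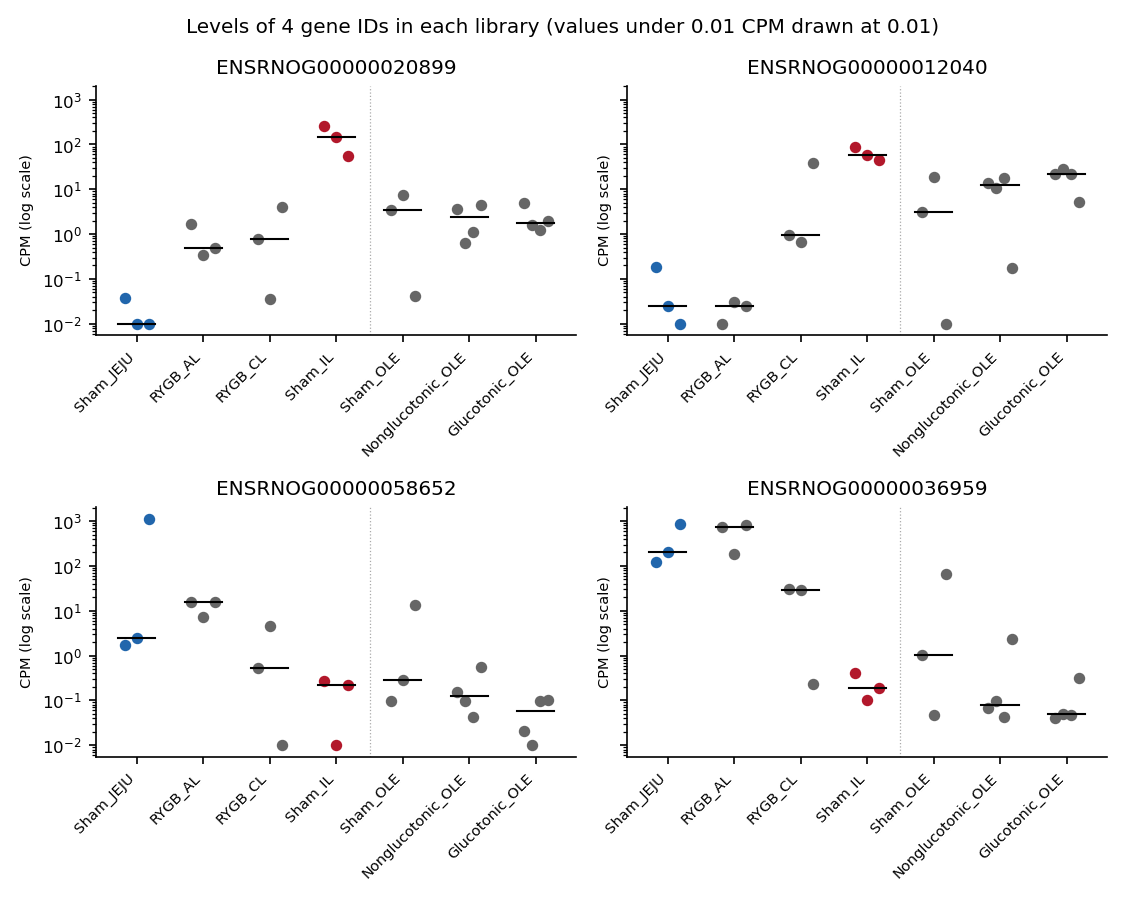
CPM of the 4 named IDs in each library of the first cohort (left of the dotted line) and each sample number of the OLETF cohort (right), on a log axis; bars are medians. Sham_IL (red) and Sham_JEJU (blue) do not overlap in any panel, and in ENSRNOG00000058652 a single jejunum library at 1127 CPM stands far above the others. OLETF levels include the 2 dominant IDs in the library size and read low beside the first cohort.

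The libraries of a segment resembled each other more than those of the other segment in most pairs. Across IDs, log2 CPM correlated at r = 0.962 to 0.968 between jejunum libraries, 0.973 to 0.981 between ileum libraries and 0.930 to 0.965 between segments. The jejunum libraries varied more. The median range over the 3 libraries of a segment was 0.65 log2 units in jejunum and 0.43 in ileum, and the jejunum range was the wider one for 67.5% of the IDs. Among single libraries, 2257 IDs of Sham_JEJU 15-30 and 797 of Sham_IL 8-15 differed over 2-fold from the mean of their segment's other libraries, the highest and lowest of the 6. Over all IDs tested the median absolute difference between the segment means was 0.41 log2 units. A difference of means and a range of single libraries are unlike measures, so their sizes cannot be compared directly.

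Lack of overlap was far more common than a call. For 5678 IDs (35.2%) all 3 ileum libraries lay on one side of all 3 jejunum libraries, 2812 of them higher and 2866 lower in ileum, whereas 9.22% of IDs were called. Of the 1489 called IDs, 1485 did not overlap. Conversely, of the 525 IDs with a change over 4-fold, 241 (45.9%) were called, and 203 that were not called also did not overlap.

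The number of called IDs rested on single libraries. It was 235 without Sham_IL 15-30, 275 without Sham_IL 8-15, 882 without Sham_IL 14-28, 546 without Sham_JEJU 8-15 and 690 without Sham_JEJU 15-30. Without Sham_JEJU 14-28 it was 1580. Leaving out both libraries of a number, chosen once the data had been examined, gave 1022 (number 14-28), 4 (15-30) and 0 (8-15), where 2780 and 2612 IDs in the last pair still had an unadjusted p under 0.05 (edgeR). DESeq2 called 2639 IDs in the same 12 libraries, 961 higher and 1678 lower, and 1482 of them were also called by edgeR. A core of 198 IDs, 46 higher and 152 lower, was called with each of the 6 sham libraries left out in turn.

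**Figure D4:**
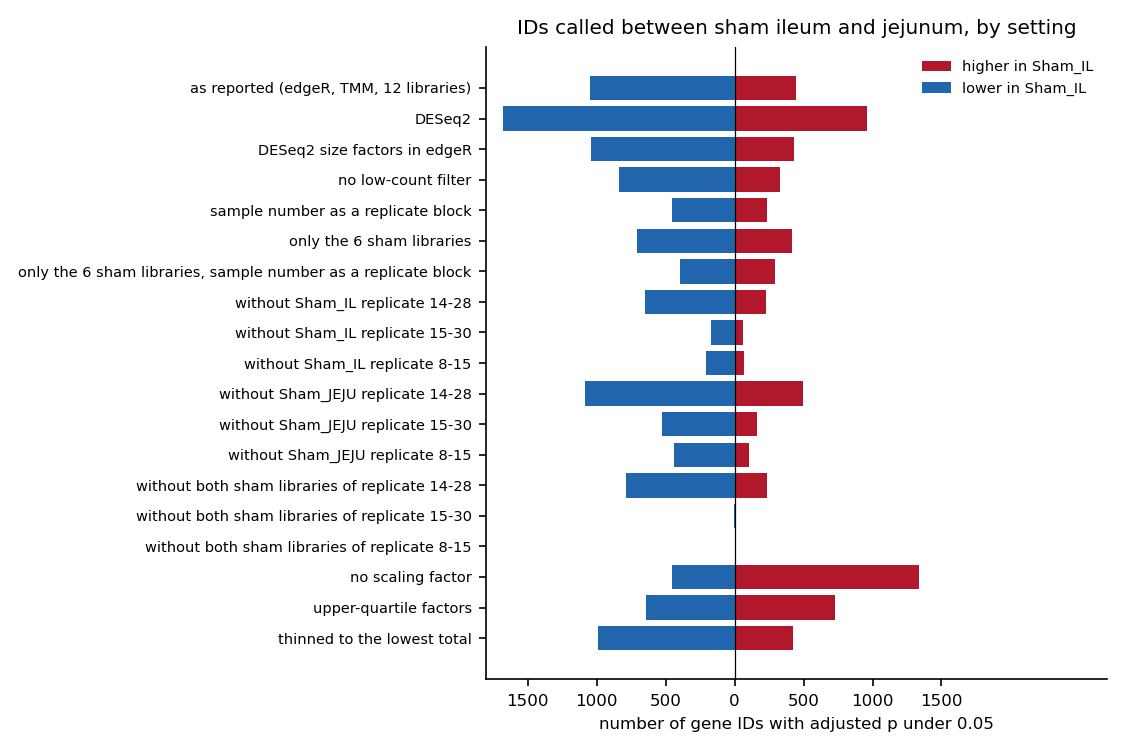
Bars give the number of IDs called higher (red, to the right) and lower (blue, to the left) in Sham_IL than in Sham_JEJU under each setting. The count falls from 1489 to 4 and 0 when both libraries of number 15-30 or 8-15 are left out, and the direction split turns with no scaling factor (1339 higher and 451 lower).

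The sham-called IDs were then followed in the RYGB limbs, whose libraries the sham contrast did not use, although all 12 shared a scaling and a spread estimate. Both limbs come from operated rats, and only the common limb is where food meets bile and pancreatic juice. Position along the gut, contact with these juices and the operation cannot be told apart in this comparison. Of the 444 ileum-higher IDs, 385 (86.7%) were higher in the common than in the alimentary limb, against 53.0% of all IDs. Of the 1045 ileum-lower IDs, 968 (92.6%) were lower in the common limb, against 47.0% of all IDs. IDs not called in sham also tended to keep their sign, 72.7% of those with a higher and 65.4% of those with a lower mean in ileum. Without a scaling factor, 93.2% of the called ileum-higher IDs and 70.5% of the called ileum-lower IDs kept their sign. The shares of all IDs and of uncalled IDs were not computed without a factor. These values therefore have no baseline, and the shares given above for TMM scaling do not serve as one. With TMM scaling the changes of the called IDs were smaller than in sham, with medians of 0.72 and -0.50. Of these IDs, 87.8% and 94.6% changed less than in the sham contrast. Since these IDs were chosen for their sham change, a smaller value elsewhere is partly built in.

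The choice was then reversed. The limbs were compared in the same fit, in which 670 IDs were higher (4.15%) and 834 lower (5.17%) in RYGB_CL than in RYGB_AL, together 9.32% of those tested. These had median log2 changes of 1.26 and -1.06 between the limbs but 0.50 and -0.36 between the sham segments. Of them, 571 (85.2%) and 626 (75.1%) had the same sign in sham, against 71.0% and 70.0% of the IDs with that sign that were not called between the limbs. The share of the limb-lower IDs was thus near that of uncalled IDs. Over all 16146 IDs the 2 contrasts correlated at r = 0.475, across IDs that share scaling and are not independent. Called in both contrasts with the same sign were 103 higher IDs, which is 23.2% of the sham list and 15.4% of the limb list, and 216 lower IDs, 20.7% and 25.9% of these lists. With opposite signs, 10 ileum-higher IDs were called lower and 1 ileum-lower ID was called higher in the common limb.

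**Figure D5:**
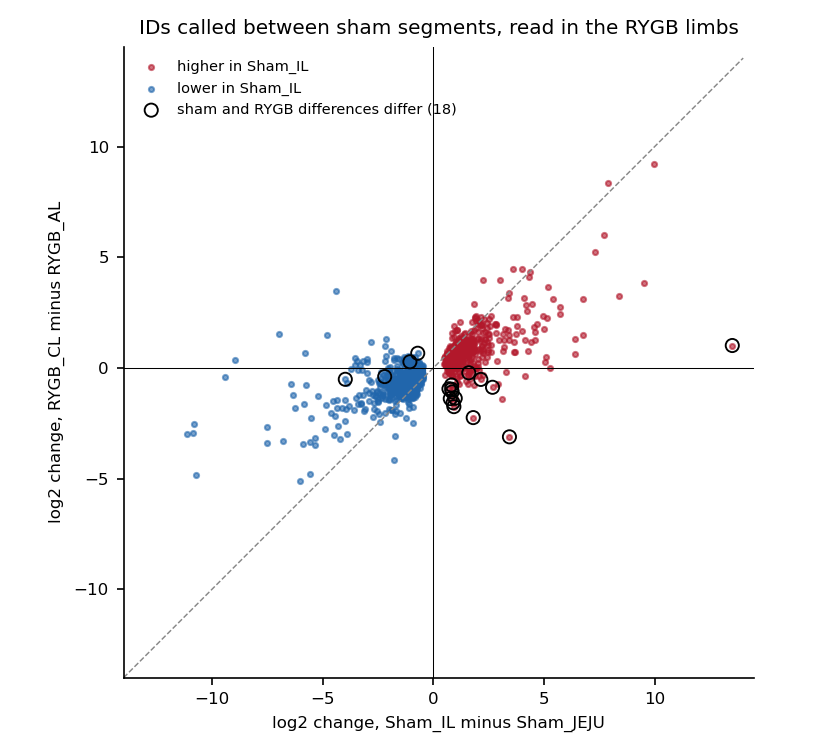
Each point is an ID called between the sham segments, with its log2 change in sham rats (horizontal) and between the RYGB limbs (vertical); the dashed line marks equal changes. Most points lie in the quadrants of equal sign and between the horizontal axis and the dashed line, and the 18 circled IDs differed between the contrasts by the interaction test.

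A test of the difference between the contrasts singled out 98 IDs, or 0.607% of those tested (edgeR interaction test, adjusted p under 0.05). For 82 of them (0.508%) the sham difference was the more positive one, with a median of 0.39 between the sham segments and -1.83 between the limbs. For the other 16 (0.0991%) the medians were -0.68 and 1.50. Ileum-higher IDs made up 14 of the 82 (17.1%, against 2.75% of all IDs tested), and ileum-lower IDs 4 of the 16 (25%, against 6.47%). In the common against the alimentary limb, 78 of the 82 were called lower and 13 of the 16 higher. All these counts come from libraries that the interaction test used, so they describe the 98 IDs and test nothing. Leaving out 1 ileum library lowered this count to 8 (8-15), 12 (15-30) or 36 (14-28), and leaving out 1 jejunum library to 15 (14-28), 46 (15-30) or 50 (8-15). It was 12 and 19 when the alimentary libraries 15-29 and 2-3 were dropped, and 45 when the common limb library 1-1 was. DESeq2 gave 568.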

How the data were processed

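Per the labels' protocols, libraries were stranded and made from column-purified total RNA after removal of ribosomal RNA. The submitters' processing notes name FastQC, STAR and rat build rn6. How reads were counted, on which annotation and with what rule for multiple matches, is not given in the sources used here, so near-identical genes cannot be told apart. The deposited table holds whole-number counts per Ensembl rat ID, not normalized by the authors, as its values show.

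The members and lists were chosen with earlier results of these data known. No line of the reference gene table carries an Ensembl rat ID, so the fixed gene lists could not be applied. By the rest of the naming rule, 2 IDs per direction were named: the largest absolute log2 changes among called IDs without overlap between the segments that averaged 5 CPM or more over the 6 sham libraries.

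The 12 first-cohort libraries were fitted in edgeR 4.0.16 under R 4.3.3, using filterByExpr (10 counts in enough libraries, 15 in total), TMM, and robust quasi-likelihood fitting, the spread shared by all groups (biological coefficient of variation 0.314). An SE is the log2 change over the square root of F. Alternatives were DESeq2 1.42.0, its size factors, no filter, sham libraries only, the sample number as a block and each library left out. No scaling, upper-quartile factors, thinning and leaving out both libraries of a number were added after the data were seen. OLETF counts were TMM-scaled on their own, with the 2 libraries numbered 13 in each section summed. The 2 dominant IDs were left out of the shares of counts but not of the OLETF CPM. Counting intervals and the floor of 3 counts cover counting error only. The chi-square per degree of freedom between libraries of a segment was at least 48.0, so none was a repeat deposit. The labels do not say what a sample number marks, so p-values reflect only how these samples vary, which may be technical.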

Additional observations from a re-analysis of the deposited data

Results flagged for a closer look

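The difference between the sham segments and the difference between the RYGB limbs were themselves different for 98 IDs (edgeR interaction test), among them ENSRNOG00000020899 with a log2 difference of 12.50 between the contrasts. ENSRNOG00000036959, an ID lower in sham ileum, reached 0.312 CPM in Glucotonic_OLE 19 (next highest 0.0510 CPM) and 2.35 CPM in Nonglucotonic_OLE 19 (next highest 0.0954 CPM). The first value rests on 6 counts, where the others of its group held 1 or 2, and the second on 55, where the others held 1 to 3. Each was far from the other samples of its group by this measure. They were 2 flags among 12 groups of values examined, and both carry the number 19. Chance alone flags about 1 in 20 groups if values are normally spread. Whether that rate holds for counts this low was not tested.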

How the results depend on the processing

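IDs called between the sham segments numbered 1489 as reported, 2639 with DESeq2, 688 with the sample number as a replicate block and 690 with the block in the sham libraries alone. The count ran from 0 to 1580 when libraries were left out. The cause of the lower counts with the replicate block was not tested. The deviations of same-numbered segments correlated weakly: r was 0.0295 (8-15), 0.0636 (14-28) and 0.0869 (15-30), all under 0.1, and only the 15-30 libraries both correlated best with their own number. The block gave 69 IDs in the interaction test, where DESeq2 gave 568 and leaving out libraries 8 to 127. With the block, the adjusted p (edgeR) was 0.0816 for ENSRNOG00000036959 and 0.171 for ENSRNOG00000058652. For the segment difference of the other named IDs it was under 0.05. With the block in the sham libraries alone it was 0.00184 for ENSRNOG00000036959 and 0.214 for ENSRNOG00000058652. The share of ileum-higher IDs with the same sign in the RYGB limbs was 83.1% to 88.7% when RYGB libraries were left out and 93.2% without scaling, and that of ileum-lower IDs 89.9% to 95.3% and 70.5%. The shares without scaling have no baseline over all IDs. No named ID changed direction. The fixed gene lists gave no values. Of the 1489 IDs, 194 were called with each sham library left out and in 7 other fits (DESeq2, its size factors, no filter, sham libraries only, no scaling, upper-quartile factors, thinning).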

Other observations

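Transcripts were spread over more IDs in ileum than in jejunum. With each library thinned to the same total, 15036, 15342 and 15506 IDs held at least 10 counts in the ileum libraries and 14085, 14536 and 14641 in the jejunum libraries. The groups did not overlap (exact permutation test, two-sided, p = 0.1, the smallest that 3 against 3 libraries allow). The 1000 most abundant IDs of a library held 51.2% to 55.0% of ileum counts and 56.6% to 61.2% of jejunum counts (same exact test, p = 0.1). For the 100 most abundant IDs the ranges overlapped, at 21.3% to 24.6% in ileum and 24.4% to 28.9% in jejunum (same exact test, p = 0.2). So did those for the 10 most abundant IDs, at 7.03% to 9.03% in ileum and 7.70% to 10.2% in jejunum (same exact test, p = 0.4).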
